A study of Mus musculus with 18 samples.

Results

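The B cell identity genes are 9 genes by which B lymphocytes are commonly recognised, chosen as a fixed list of names and followed across mouse lungs. They are Ms4a1, Cd79a, Cd79b, Cd22, Cr2, Fcer2a, Pax5, Blk and Cd37, and all 9 were measured, among 18193 genes in all. Each gene is represented by 1 probe set, chosen from those annotated to that gene and no other as the one whose average signal over the arrays was highest. The rule names the 9 genes and uses no measured value, though the list was drawn up with earlier results of these data known.

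B cells recognise antigen with a membrane immunoglobulin that signals through the Cd79a and Cd79b chains, and a set of surface proteins raises or restrains that signal. In the airways B cells lie scattered in the tissue and in lymphoid aggregates beside bronchi, and in allergic disease their descendants make IgE, for which Fcer2a (CD23) is the low-affinity receptor. B cells of mice also carry Tlr7, the endosomal RNA sensor that resiquimod activates.

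The values come from whole lungs of 18 male mice aged 16 weeks, 1 Affymetrix array for each sample, in 6 groups of 3. All mice, controls included, received 3 intraperitoneal doses of 100 µg ovalbumin in alum at weekly intervals, and 7 days later began 3 daily aerosol exposures of 30 min. In each strain, A/J and C57BL/6, the resiquimod group inhaled 1% ovalbumin and had 3 daily intraperitoneal injections of 100 µg resiquimod (S-28463, R-848), the first of them 24 h before the first aerosol. The ovalbumin group inhaled 1% ovalbumin without resiquimod, and the PBS group inhaled PBS. No group had resiquimod without ovalbumin, and the labels list no vehicle injection for the others, so an effect of injection cannot be told apart from that of the drug. Each sample is labelled a biological replicate and was taken as 1 mouse, and p-values measure the spread between these samples.

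All values are log2 expression values that the authors made with RMA, so a difference of 1 is a doubling of the signal, and a level of one gene's probe set cannot be set against that of another. In whole lung, a change in the number of B cells and a change in RNA per cell cannot be told apart. A gene is called changed at an adjusted p under 0.05 from limma, with adjustment over all 45037 probe sets. The array medians lay between 4.765 and 4.803 and arrays of a group correlated at Pearson r 0.987 to 0.997 across probe sets. In the Affymetrix controls for RNA quality C57BL/6 ovalbumin array 2 stood out. Its 3' minus 5' difference was 0.56 for Gapdh, where the next highest array, A/J PBS array 3, had 0.10. For b-actin it was 0.67, the highest of the 18 arrays. Without that array 6 of the 9 genes still rose with resiquimod relative to ovalbumin in C57BL/6. The 7 lung markers averaged 12.28 to 12.57 on every array, which fits the tissue label. In 8 of the 18 arrays, found in every group, transcripts of squamous epithelium such as Krt4 and Krt13 stood more than 1 log2 unit above the median array. A/J ovalbumin array 2, the only array of its group not among those 8, was below its group mean in 9 of 9 B cell genes. Its median deviation was -0.73 (the heat map of deviations shows all 9). Whether the squamous tissue bears on the B cell signal was not tested. The calls that change without the squamous arrays or A/J ovalbumin array 2 are given beside the results.

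**Figure D1:**
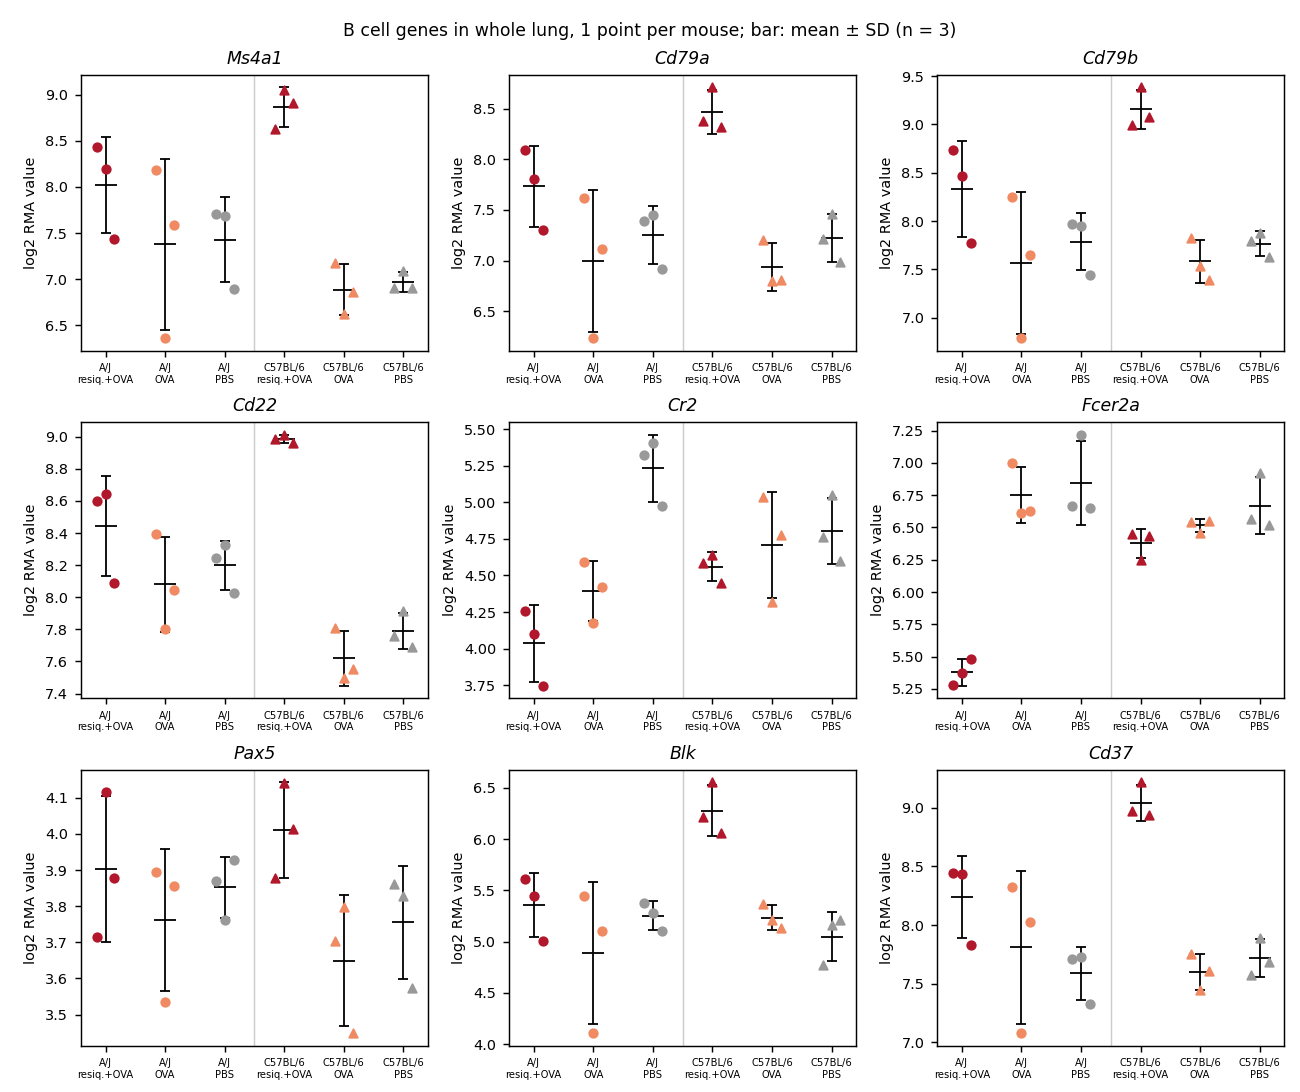
Log2 expression (RMA, vertical axes) of each of the 9 genes on each of the 18 arrays; points are arrays, bars are group means ± SD, and groups run resiquimod with ovalbumin, ovalbumin, PBS within each strain. In C57BL/6 the 3 resiquimod points of Ms4a1 (8.63 to 9.06) lie above all 6 other points of that strain, whereas in A/J the 3 resiquimod points of Fcer2a (5.28 to 5.48) lie below all the others.

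With resiquimod before ovalbumin, relative to ovalbumin alone, 1 of the 9 genes fell in A/J lungs and 6 of the 9 rose in C57BL/6 lungs. In A/J the gene was Fcer2a, at -1.37 on the log2 scale, where 5.39% of all genes fell; none of the 9 rose, where 4.38% of all genes did. In C57BL/6 the rises ran between 2.06-fold (Blk) and 3.95-fold (Ms4a1), where 5.8% of all genes rose, and the 3 others, Cr2, Fcer2a and Pax5, did not pass the test. The median change of the 9 was 0.43 in A/J, against -0.0026 over all genes, and 1.37 in C57BL/6, against -0.02 over all genes.

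Cd79a and Cd79b encode the signalling chains of the B cell receptor, and no B cell receptor reaches the surface without them. In A/J lungs Cd79a measured 8.09, 7.81 and 7.30 after resiquimod with ovalbumin, 7.62, 6.24 and 7.12 after ovalbumin and 7.39, 7.45 and 6.92 after PBS. Those groups overlapped, and the change of resiquimod relative to ovalbumin, 0.74 (95% interval 0.16 to 1.32), had an adjusted p of 0.128. In C57BL/6 lungs Cd79a measured 8.38, 8.71 and 8.32 after resiquimod with ovalbumin, 7.20, 6.80 and 6.81 after ovalbumin and 7.21, 7.46 and 6.99 after PBS. Every resiquimod array was above every other array of that strain, and the change relative to ovalbumin was 1.53 ± 0.27 (SE, n = 3 arrays a group, adjusted p = 0.00185 in the limma fit).

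Cd79b varied with its partner at a Pearson r of 0.99 over the 18 arrays, a description, since the arrays share treatment groups. In A/J lungs it measured 8.74, 8.47 and 7.78 after resiquimod with ovalbumin, 8.25, 6.79 and 7.65 after ovalbumin and 7.97, 7.95 and 7.45 after PBS. The A/J groups overlapped, with a change of 0.76 relative to ovalbumin (95% interval 0.15 to 1.37) and an adjusted p of 0.136. In C57BL/6 lungs it measured 9.00, 9.39 and 9.08 after resiquimod with ovalbumin, 7.83, 7.54 and 7.39 after ovalbumin and 7.80, 7.88 and 7.63 after PBS. There the resiquimod arrays stood apart and rose by 1.57 ± 0.29 relative to ovalbumin (SE, adjusted p = 0.00220).

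Blk encodes a Src-family tyrosine kinase that acts just below the receptor and is found mainly in B cells. A/J lungs gave 5.61, 5.45 and 5.01 after resiquimod with ovalbumin, 5.44, 4.11 and 5.11 after ovalbumin and 5.38, 5.28 and 5.10 after PBS. They overlapped, with a change of 0.47 relative to ovalbumin (95% interval -0.06 to 1.00) that was not called. C57BL/6 lungs gave 6.22, 6.56 and 6.06 after resiquimod with ovalbumin, 5.36, 5.21 and 5.13 after ovalbumin and 4.77, 5.16 and 5.21 after PBS. The C57BL/6 rise relative to ovalbumin, 1.04 ± 0.25 (SE, adjusted p = 0.0150), was the smallest of the 6 and lost the call without C57BL/6 resiquimod array 2 (adjusted p = 0.0691) or C57BL/6 ovalbumin array 3 (adjusted p = 0.0541).

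Ms4a1 encodes CD20, a membrane protein of B cells from the pre-B stage up to, but not including, the plasma cell. In A/J it measured 8.44, 8.19 and 7.44 after resiquimod with ovalbumin, 8.19, 6.36 and 7.58 after ovalbumin and 7.70, 7.68 and 6.90 after PBS. The A/J ovalbumin arrays were spread between 6.36 (array 2) and 8.19 (array 1), and the change of 0.65 relative to ovalbumin had a 95% interval of -0.10 to 1.39. In C57BL/6 it had the largest change of the 9, with 8.63, 9.06 and 8.92 after resiquimod with ovalbumin, 7.18, 6.62 and 6.86 after ovalbumin and 6.90, 7.09 and 6.90 after PBS. The resiquimod arrays stood apart from the other 6, at 1.98 ± 0.35 above ovalbumin (SE, adjusted p = 0.00173). The other Ms4a1 probe set rose by 2.12 in C57BL/6 (adjusted p = 0.00245).

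Cd22 encodes a sialic acid-binding lectin of B cells that dampens receptor signalling. Its A/J values were 8.60, 8.65 and 8.09 after resiquimod with ovalbumin, 8.39, 7.80 and 8.05 after ovalbumin and 8.24, 8.32 and 8.03 after PBS. They overlapped, with a change of 0.36 relative to ovalbumin (95% interval 0.05 to 0.68, adjusted p = 0.182). Its C57BL/6 values were 8.99, 9.01 and 8.96 after resiquimod with ovalbumin, 7.81, 7.49 and 7.55 after ovalbumin and 7.76, 7.91 and 7.69 after PBS. The C57BL/6 resiquimod arrays had an SD of 0.03 and stood 1.37 ± 0.15 above ovalbumin (SE, adjusted p = 2.16e-05). The other Cd22 probe set rose in C57BL/6 by 1.78 (adjusted p = 1.59e-04).

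Cd37 encodes a tetraspanin of the leukocyte surface that is most abundant on mature B cells and is also found on other leukocytes. In A/J lungs it measured 8.44, 8.44 and 7.83 after resiquimod with ovalbumin, 8.32, 7.08 and 8.03 after ovalbumin and 7.71, 7.73 and 7.33 after PBS. The A/J resiquimod arrays overlapped the ovalbumin arrays (0.43, adjusted p = 0.357) and lay above all 3 PBS arrays (0.65, adjusted p = 0.119), and neither change was called. In C57BL/6 lungs Cd37 measured 8.97, 9.22 and 8.94 after resiquimod with ovalbumin, 7.75, 7.45 and 7.61 after ovalbumin and 7.57, 7.89 and 7.69 after PBS. The C57BL/6 resiquimod arrays did not overlap the others and were 1.44 ± 0.24 above ovalbumin (SE, adjusted p = 9.48e-04). The other Cd37 probe set rose in C57BL/6 by 0.95 (adjusted p = 0.00440).

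Pax5 encodes the transcription factor that commits lymphoid progenitors to the B lineage. Its probe set lay low on every array, between 3.45 and 4.14, where the 25th percentile of all values was 3.33, so changes there are hard to see. In A/J the groups overlapped, at 3.71, 4.12 and 3.88 after resiquimod with ovalbumin, 3.89, 3.54 and 3.86 after ovalbumin and 3.87, 3.76 and 3.93 after PBS. In C57BL/6 it measured 3.88, 4.14 and 4.01 after resiquimod with ovalbumin, 3.70, 3.80 and 3.45 after ovalbumin and 3.86, 3.83 and 3.57 after PBS. The C57BL/6 resiquimod arrays were all above the others, by 0.36 ± 0.12 relative to ovalbumin (SE), which was not called (adjusted p = 0.0929). The other Pax5 probe set gave a C57BL/6 change of 0.09.

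Fcer2a encodes CD23, the low-affinity IgE receptor of mature follicular B cells, whose transcription is known to be induced by interleukin-4. Its A/J values were 5.28, 5.37 and 5.48 after resiquimod with ovalbumin, 7.0, 6.62 and 6.63 after ovalbumin and 6.67, 7.22 and 6.65 after PBS. The 3 resiquimod arrays were more than 1 unit below all 6 others, and the level was 2.59-fold lower than after ovalbumin (-1.37 ± 0.14, SE, adjusted p = 1.54e-05). In C57BL/6 it measured 6.45, 6.25 and 6.43 after resiquimod with ovalbumin, 6.54, 6.46 and 6.55 after ovalbumin and 6.56, 6.92 and 6.52 after PBS. The resiquimod arrays lay below the others by a narrow margin, the highest at 6.453 and the lowest ovalbumin array at 6.457. The change of -0.14 relative to ovalbumin (95% interval -0.44 to 0.17) was not called. The other Fcer2a probe set also fell in A/J (-1.10, adjusted p = 0.00125) and gave 0.08 in C57BL/6.

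Cr2 encodes complement receptor 2 (CD21), which lowers the threshold of B cell activation and is also carried by follicular dendritic cells. Its probe set averaged 4.62 over the 18 arrays, where the median of all values was 4.78, and no other was annotated to Cr2 alone. In A/J lungs it measured 4.26, 4.10 and 3.75 after resiquimod with ovalbumin, 4.59, 4.18 and 4.42 after ovalbumin and 5.32, 5.41 and 4.97 after PBS. Both challenged groups lay below every PBS array, while the resiquimod and ovalbumin arrays overlapped (-0.36, 95% interval -0.73 to 0.02, adjusted p = 0.281). In C57BL/6 lungs the groups overlapped at 4.59, 4.64 and 4.45 after resiquimod with ovalbumin, 5.03, 4.32 and 4.77 after ovalbumin and 4.76, 5.05 and 4.60 after PBS. The C57BL/6 change of resiquimod relative to ovalbumin was -0.15 (95% interval -0.52 to 0.23).

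**Figure D2:**
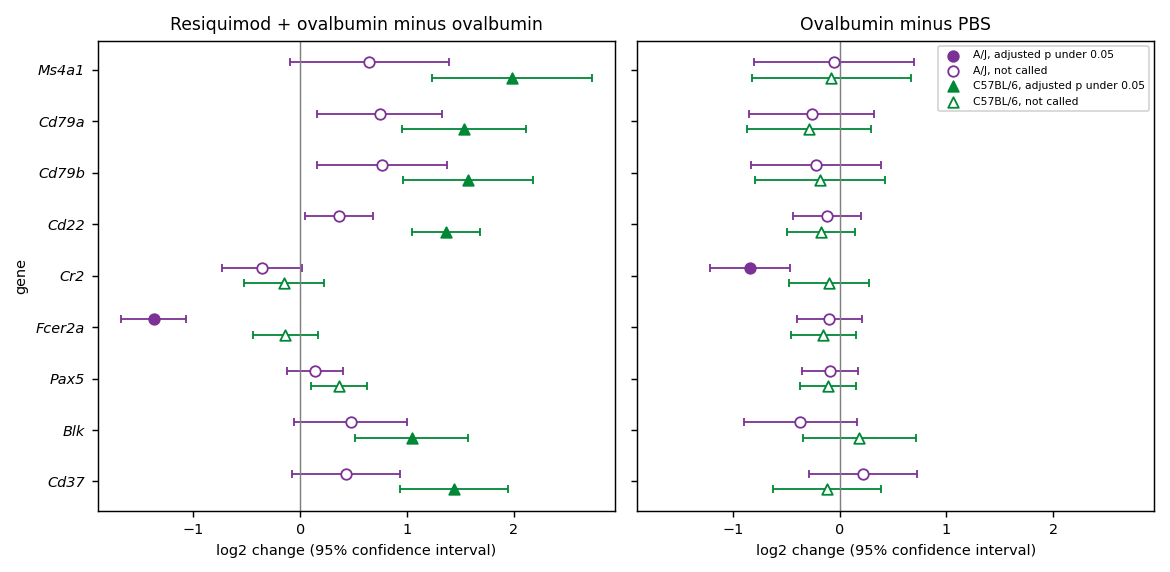
Log2 change (horizontal axes) of each gene with its 95% confidence interval, resiquimod with ovalbumin minus ovalbumin on the left and ovalbumin minus PBS on the right; circles are A/J, triangles C57BL/6, filled where the adjusted p was under 0.05. On the left 6 C57BL/6 triangles are filled on the positive side and Fcer2a is the filled A/J circle at -1.37; on the right only Cr2 in A/J, at -0.84, is filled.

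Leaving out 1 array at a time kept 5 to 6 of the C57BL/6 calls, and leaving out the 8 arrays with squamous transcripts kept 6, with changes of 0.97 (Blk) to 2.03 (Ms4a1). In A/J the count of calls was less settled. Fcer2a was called in all 18 fits without 1 array, but 2 rises joined it without A/J ovalbumin array 1 (Cd79a 1.06 and Cd79b 1.11) or without A/J resiquimod array 3 (Cd22 0.54 and Cd79b 1.04). Without A/J ovalbumin array 2 the A/J changes of Ms4a1, Blk and Cd37 were 0.14, 0.08 and 0.06. Without the squamous arrays, where array 2 is the sole A/J ovalbumin array, Blk (1.12) and Cd79a (1.32) were called higher and Fcer2a lower by 1.19 (adjusted p = 0.0334).

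**Figure D3:**
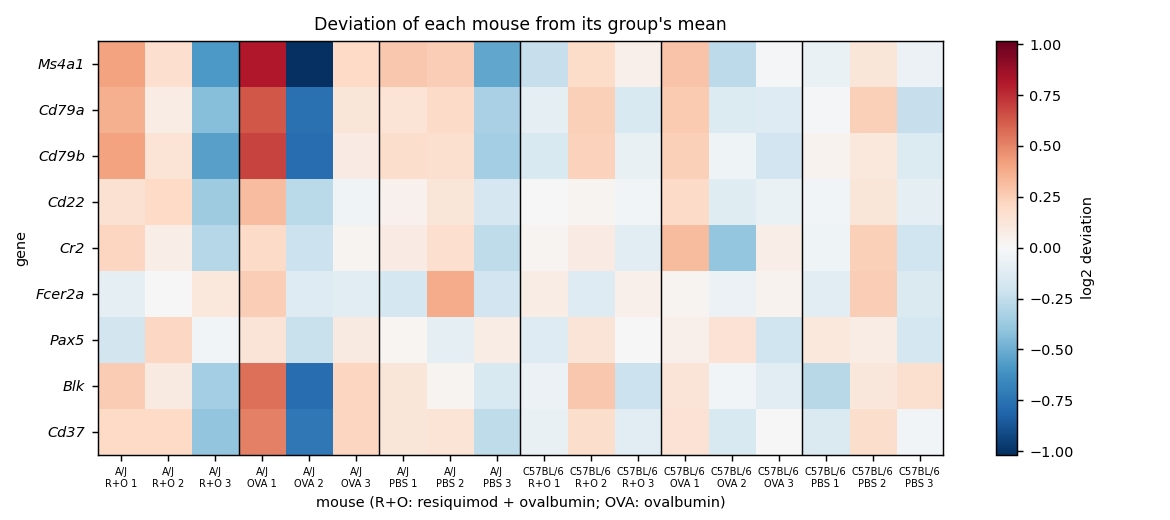
Heat map of the deviation of each array (columns) from the mean of its own group for each of the 9 genes (rows), coloured on the log2 scale with blue below and red above the mean. The 9 values of A/J ovalbumin array 2 all lie below 0 with a median of -0.73, and those of A/J ovalbumin array 1 all lie above 0 with a median of 0.51.

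Several of the 9 genes have a RefSeq promoter window (assembly GRCm38.p6): 6 of the 9 matched, with 8 windows among them. Ms4a1 on chromosome 19, Cd79b on chromosome 11 and Blk on chromosome 14 are named only. The windows below are the 250 bases before an annotated start in 3 genes that rose together in C57BL/6 and in the 1 that fell in A/J. Only the Cd79a window lies just before the RefSeq span of its gene. Those of Cd22, Cd37 and Fcer2a, on the minus strand, lie inside spans that end at 30880342, 45239340 and 3694174. All windows are written in the direction of transcription. They were searched on both strands for the letters CCCNNGGG of early B cell factor (EBF), the octamer ATGCAAAT, the letters GAGGAA of the ETS factor Spi1, and TTCNNNNGAA of STAT6, the transcription factor that carries interleukin-4 signals. Capitals mark the matches.
Cd79a, chr7:24897247-24897496, plus strand: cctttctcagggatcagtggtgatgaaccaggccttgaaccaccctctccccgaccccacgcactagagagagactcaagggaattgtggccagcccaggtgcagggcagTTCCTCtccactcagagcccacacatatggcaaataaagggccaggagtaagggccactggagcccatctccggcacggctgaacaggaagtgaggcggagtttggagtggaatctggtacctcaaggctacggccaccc
Cd22, chr7:30879029-30879278, minus strand: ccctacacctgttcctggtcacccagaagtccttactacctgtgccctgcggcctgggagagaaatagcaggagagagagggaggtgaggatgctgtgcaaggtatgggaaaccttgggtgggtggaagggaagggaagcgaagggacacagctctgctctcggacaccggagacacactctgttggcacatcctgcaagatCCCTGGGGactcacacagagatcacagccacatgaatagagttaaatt
Cd37, chr7:45238840-45239089, minus strand: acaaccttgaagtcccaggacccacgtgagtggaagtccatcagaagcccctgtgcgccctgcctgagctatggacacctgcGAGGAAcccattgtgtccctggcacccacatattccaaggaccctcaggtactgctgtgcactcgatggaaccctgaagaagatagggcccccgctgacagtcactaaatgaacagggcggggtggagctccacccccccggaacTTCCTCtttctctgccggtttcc
Fcer2a, chr8:3690862-3691111, minus strand, 1 of its 3 windows: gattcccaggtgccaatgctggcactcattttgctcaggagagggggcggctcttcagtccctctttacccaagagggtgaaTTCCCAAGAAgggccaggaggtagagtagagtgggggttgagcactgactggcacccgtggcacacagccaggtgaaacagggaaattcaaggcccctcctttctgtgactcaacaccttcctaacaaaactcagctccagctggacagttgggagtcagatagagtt

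The Cd79a window held the Spi1 letters at bases -140 to -135 from the start. Cd37 held them at -168 to -163 and again at -23 to -18. Among the promoter windows of all genes 23.3% held the Spi1 letters. Cd22 held the EBF letters at -48 to -41, as did 11.8% of all windows. The Fcer2a window printed above held the STAT6 letters at -168 to -159, as did 5.85%. The other Fcer2a windows, among them the one just before the RefSeq span of the gene, held none of the 4 motifs. The octamer, present in 1.6% of all windows, had no match in the 8 windows, nor did any of the 4 motifs in the windows of Cr2 and Pax5. These matches describe letters only, and no binding was measured.

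Ovalbumin challenge on its own moved few of these genes. In A/J lungs 1 of the 9 was called relative to PBS, Cr2, which was 1.79-fold lower (-0.84 ± 0.18, SE, n = 3 arrays a group, adjusted p = 0.0139), where 4.38% of all genes were called and 1.18% fell. The other 8 A/J changes ran between -0.37 (Blk) and 0.22 (Cd37), with overlapping arrays. In C57BL/6 lungs limma called none of the 9 and gave 0 an unadjusted p under 0.05, where 1.59% of all genes were called, and the changes ran between -0.29 (Cd79a) and 0.19 (Blk). The strain difference in this effect was -0.74 ± 0.25 for Cr2 (SE, adjusted p = 0.730), and none of the 9 was called in a comparison that called 0.0605% of all genes. The call of Cr2 was lost without A/J ovalbumin array 2 or 3 or A/J PBS array 1 or 2, with adjusted p values up to 0.0741, and without the squamous arrays (-1.01, adjusted p = 0.245).

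The resiquimod groups were also set against PBS, in a comparison that shares its resiquimod arrays with the one against ovalbumin. In A/J 2 of the 9 fell, where 5.27% of all genes did. Fcer2a was 2.76-fold lower (-1.47 ± 0.14, SE, adjusted p = 6.27e-06) and Cr2 2.29-fold lower (-1.20 ± 0.18, SE, adjusted p = 3.28e-04), with all 3 resiquimod arrays below all 3 PBS arrays for either gene. Without A/J ovalbumin array 2, which enters this comparison through the shared estimate of spread, Cd37 was called higher (0.65, adjusted p = 0.0197). In C57BL/6 Fcer2a and Cr2 had changes of -0.29 (95% interval -0.60 to 0.01) and -0.24 (95% interval -0.62 to 0.13), not called, and 6 of the 9 rose, where 9.61% of all genes did: Ms4a1 by 1.90, Cd79b by 1.39, Cd37 by 1.32, Cd79a by 1.25, Blk by 1.23 and Cd22 by 1.20. Without the squamous arrays, which leaves 1 C57BL/6 PBS array, the C57BL/6 count was 3, since Cd79a, Cd79b and Cd37 had adjusted p values of 0.0980, 0.0689 and 0.0584.

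Without resiquimod none of the 9 was called different between the strains, after PBS (where 9.01% of all genes were called) or after ovalbumin (9.27%). Cd22 had the lowest adjusted p in both: it averaged 8.20 ± 0.15 in A/J and 7.79 ± 0.11 in C57BL/6 after PBS (SD, n = 3 each, limma adjusted p = 0.120), and 8.08 ± 0.30 in A/J and 7.62 ± 0.17 in C57BL/6 after ovalbumin (adjusted p = 0.0713). Without A/J ovalbumin array 2, Cd22 (0.60, adjusted p = 0.0245) and Ms4a1 (1.00, adjusted p = 0.0428) were called higher in A/J after ovalbumin, and without the squamous arrays Blk was called lower (-1.06, adjusted p = 0.0180). After resiquimod with ovalbumin the median difference of the 9, A/J minus C57BL/6, was -0.80, against 0.01 over all genes. In that comparison 4 of the 9 were called lower in A/J, where 8.92% of all genes were. Fcer2a averaged 5.38 ± 0.10 in A/J and 6.38 ± 0.11 in C57BL/6 (SD, adjusted p = 1.22e-04). The others were Blk (-0.92, adjusted p = 0.0191), Cd37 (-0.80, adjusted p = 0.0316) and Cd22 (-0.54, adjusted p = 0.0221). The count fell to 1, Fcer2a, without A/J resiquimod array 3 or C57BL/6 resiquimod array 2 and to 2 without C57BL/6 resiquimod array 1 or 3, and was 7 without A/J ovalbumin array 2, where Ms4a1, Cd79a and Cd79b were called lower in A/J as well. Without the squamous arrays it was 5: Cd22 lost the call (-0.61, adjusted p = 0.0721), and Cd79a (-0.79, adjusted p = 0.0405) and Cd79b (-0.92, adjusted p = 0.0422) were called lower in A/J as well.

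The difference between strains in the resiquimod effect was tested directly, as the A/J change minus the C57BL/6 change. It passed for 2 of the 9, Fcer2a (-1.23 ± 0.20, SE, adjusted p = 0.00967) and Cd22 (-1.004 ± 0.21, SE, adjusted p = 0.0378), in a comparison that called 0.879% of all genes lower. For Fcer2a this set a fall in A/J against a change near 0 in C57BL/6, and for Cd22 a change of 0.36 in A/J against a rise of 1.37 in C57BL/6. Ms4a1 (-1.34 ± 0.50, SE, adjusted p = 0.245) and Cd37 (-1.01 ± 0.34, SE, adjusted p = 0.185) had differences of like size with wider errors and were not called. The other probe set gave -1.18 for Fcer2a (adjusted p = 0.0440) and -1.12 for Cd22 (adjusted p = 0.143). Cd22 lost the call in 9 of the 18 fits without 1 array, while Fcer2a kept it in all 18. Among the 9 was the fit without C57BL/6 ovalbumin array 2 (-0.94, limma adjusted p = 0.0920), the array that stood out in the RNA quality controls. Without A/J ovalbumin array 2, Ms4a1 (-1.84, adjusted p = 0.0331) and Cd37 (-1.38, adjusted p = 0.0142) were called as well, and without the squamous arrays none of the 9 was.

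The 9 genes did not vary as 1 block. Over the 18 arrays Ms4a1, Cd79a, Cd79b, Cd22, Blk and Cd37 correlated with each other at Pearson r 0.79 to 0.99, while Fcer2a had r between -0.31 and -0.17 with these 6 and 0.72 with Cr2. With group means subtracted, the r of Fcer2a with the 6 lay between 0.19 and 0.40 and that of Cr2 between 0.58 and 0.84. These are descriptions over arrays that share treatments, strains and, in part, the same low or high B cell signal.

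Set against the mean of Ms4a1, Cd79a and Cd79b on the same array, Fcer2a was lower after resiquimod in both strains. This quantity is a difference of log2 values, expressed relative to the PBS mean of the strain. The 3 genes were picked after their values had been seen, so it is given without a test. They rose in C57BL/6, so any gene that did not change would also lie low there on this measure. For Fcer2a it averaged -2.01 ± 0.57 in A/J resiquimod lungs and 0.08 ± 0.63 in A/J ovalbumin lungs, and -1.80 ± 0.31 in C57BL/6 resiquimod lungs and 0.03 ± 0.21 in C57BL/6 ovalbumin lungs (SD, n = 3 each). The mean signal of Cr2 lay below the median of all values. For Cr2 the quantity averaged -1.74 ± 0.21 after resiquimod and -0.66 ± 0.58 after ovalbumin in A/J. In C57BL/6 it averaged -1.76 ± 0.17 after resiquimod and 0.09 ± 0.22 after ovalbumin. Pax5, whose signal is weak, averaged -0.49 ± 0.55 after resiquimod and 0.09 ± 0.60 after ovalbumin in A/J, and -1.26 ± 0.08 after resiquimod and 0.08 ± 0.27 after ovalbumin in C57BL/6. For Cd22, Blk and Cd37 the resiquimod means lay between -0.44 and 0.11. A ratio within an array shows unequal change among the genes and not which of them changed. The single-gene changes do, given here relative to ovalbumin and then to PBS. In C57BL/6 Ms4a1 (1.98), Cd79a (1.53) and Cd79b (1.57) rose, while Fcer2a (-0.14), Cr2 (-0.15) and Pax5 (0.36) were not called. In A/J Fcer2a fell (-1.37), while Ms4a1 (0.65), Cd79a (0.74), Cd79b (0.76), Cr2 (-0.36) and Pax5 (0.14) were not called. Relative to PBS, on which the ratio is centred, Fcer2a (-1.47) and Cr2 (-1.20, limma adjusted p = 3.28e-04) fell in A/J. There Ms4a1 (0.60), Cd79a (0.48), Cd79b (0.54) and Pax5 (0.05) were not called. In C57BL/6 the 3 reference genes rose relative to PBS, while Fcer2a (-0.29), Cr2 (-0.24) and Pax5 (0.26) were not called.

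**Figure D4:**
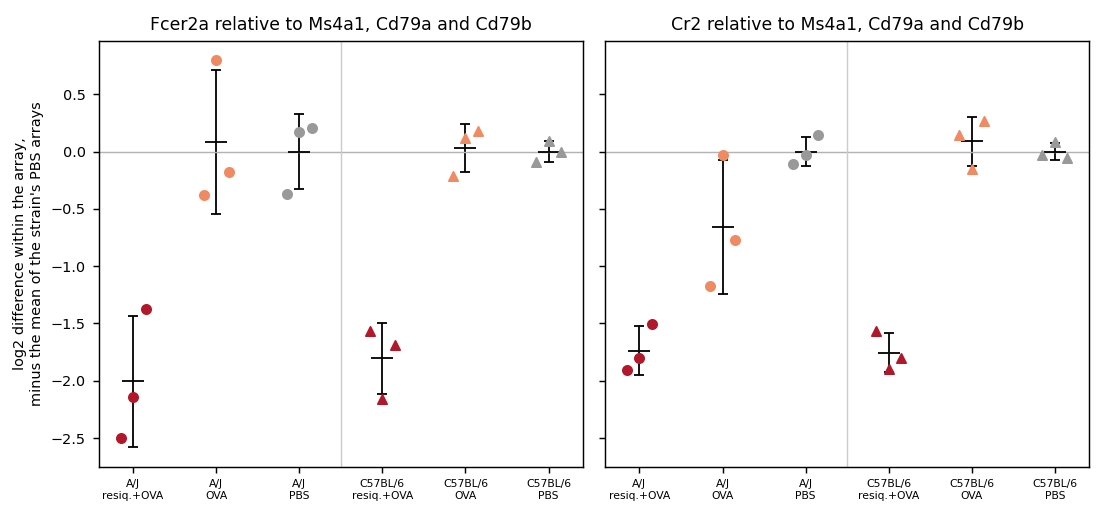
Fcer2a and Cr2 relative to the mean of Ms4a1, Cd79a and Cd79b on the same array (log2, vertical axes, PBS mean of each strain at 0); points are arrays and bars are group means ± SD. Every resiquimod array lies below every ovalbumin and PBS array of its strain, with Fcer2a between -2.50 and -1.38 in A/J and between -2.16 and -1.57 in C57BL/6. The reference genes rose in C57BL/6, so a gene without change would also lie low there.

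Of the 14 other B cell markers measured, 2 rose and 1 fell in A/J with resiquimod relative to ovalbumin, where 4.38% of all genes rose and 5.39% fell. In C57BL/6 6 rose and 1 fell, where 5.8% of all genes rose and 4.6% fell. The inhibitory coreceptor Cd72 rose by 1.64 ± 0.26 in A/J (SE, adjusted p = 7.67e-04) and by 2.16 ± 0.26 in C57BL/6 (SE, adjusted p = 5.39e-05). The Fc receptor-like gene Fcrl1 rose by 0.70 in A/J and by 1.38 in C57BL/6. Tnfrsf13c, the receptor for the survival factor BAFF, rose in C57BL/6 by 1.48 and had 0.70 in A/J (adjusted p = 0.102). Cxcr5, the follicle homing receptor, rose in C57BL/6 by 1.44 and had 0.31 in A/J (adjusted p = 0.529). The activation marker Cd83 fell in A/J by 0.63, and Cd24a fell in C57BL/6 by 0.28.

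Of 12 genes of the B cell receptor signalling chain, 6 rose in A/J and 8 in C57BL/6, and none fell. Over all genes 4.38% rose in A/J and 5.8% in C57BL/6. Prkcb, a protein kinase C, rose by 0.78 in A/J and by 1.40 in C57BL/6. The adaptor Blnk rose by 0.82 in A/J and by 1.33 in C57BL/6, and the kinase Syk by 0.57 in A/J and by 1.26 in C57BL/6. Vav1, an exchange factor, rose by 0.72 in A/J and by 0.94 in C57BL/6. Syk, Vav1 and Prkcb are also used by other blood cells.

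Among 12 transcription factors of B cells, 4 rose in A/J (4.38% of all genes) and 7 in C57BL/6 (5.8% of all genes), and none fell. Ikzf3, a zinc finger factor of mature lymphocytes, rose by 1.29 in A/J and by 2.18 in C57BL/6. The B cell coactivator Pou2af1 rose by 1.46 in A/J and by 1.64 in C57BL/6, and Ikzf1 by 0.69 in A/J and by 1.20 in C57BL/6. Spib, an ETS factor, rose in C57BL/6 by 1.08 and had 0.09 in A/J. Ebf1, an early commitment factor named after its values were seen, had -0.22 in A/J and 0.02 in C57BL/6, neither called.

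Of 12 homing and survival genes, 2 rose and 1 fell in A/J, where 4.38% of all genes rose and 5.39% fell. In C57BL/6 4 of them rose, where 5.8% of all genes did. Ccr6, a chemokine receptor of B cells and some T cells, had a change of -0.04 in A/J and rose in C57BL/6 by 1.26 ± 0.14 (SE, adjusted p = 3.39e-05), a strain difference of -1.29 ± 0.20 (SE, adjusted p = 0.00804). Cxcl13, the chemokine that draws B cells into follicles, rose in A/J by 2.04 ± 0.48 (SE, adjusted p = 0.0150) and had 1.27 in C57BL/6 (adjusted p = 0.130). Tnfrsf13b, another receptor for BAFF, rose by 1.05 in A/J and by 1.24 in C57BL/6, and Tnfsf13b, which encodes BAFF, fell in A/J by 1.05.

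Mzb1, a chaperone of antibody-secreting and innate-like B cells, rose by 2.69 in A/J and by 2.67 in C57BL/6 with resiquimod relative to ovalbumin. It was the 1 gene of 10 plasma cell genes called higher in that comparison, where 4.38% of all genes rose in A/J and 5.8% in C57BL/6. Sdc1 fell in C57BL/6 by 0.42, where 4.6% of all genes fell. Relative to PBS 5 of the 10 rose and 1 fell in A/J, where 5.27% of all genes fell. The share of all genes that rose there is not given here, so the 5 rises are a count only. In C57BL/6 4 rose, where 9.61% of all genes did, and 1 fell, a count given without its share of all genes. The median change of the 10 relative to PBS was 0.84 in A/J, against -0.007 over all genes. It was 0.80 in C57BL/6, against -0.02 over all genes. The mean of the 10 ran between 8.41 and 9.24 after resiquimod with ovalbumin and between 7.60 and 8.35 after ovalbumin in A/J, and between 8.29 and 9.07 after resiquimod with ovalbumin and between 7.66 and 8.08 after ovalbumin in C57BL/6, without overlap in either strain. No germinal centre gene of 7 rose, and Gcsam fell in C57BL/6 by 0.52. Among 7 tetraspanins Cd151 and Cd81 fell in A/J by 0.37 and 0.22, and Cd37 itself and Cd53 (0.88) rose in C57BL/6.

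Markers of other cells moved with resiquimod relative to ovalbumin too, and their part in the B cell results was not tested. Over all genes 4.38% rose and 5.39% fell in A/J, and 5.8% rose and 4.6% fell in C57BL/6. Of 12 T cell markers 1, Cd3e, fell in A/J, where the mean of the 12 ran between 5.003 and 5.32 after resiquimod with ovalbumin and between 5.19 and 5.48 after ovalbumin. In C57BL/6 5 of the 12 rose, with means between 5.61 and 5.77 after resiquimod with ovalbumin and between 5.25 and 5.31 after ovalbumin, so the 2 sets of arrays did not overlap there. Of 9 macrophage and monocyte markers 6 rose in A/J, with means of 9.03 to 9.21 after resiquimod with ovalbumin and 8.16 to 8.32 after ovalbumin. In C57BL/6 7 of the 9 rose, with means of 8.99 to 9.10 after resiquimod with ovalbumin and 7.76 to 7.92 after ovalbumin. Of 7 neutrophil markers 4 rose in A/J (means of 6.92 to 7.85 after resiquimod with ovalbumin and 5.93 to 5.97 after ovalbumin) and 6 in C57BL/6 (means of 7.55 to 7.83 after resiquimod with ovalbumin and 6.24 to 6.87 after ovalbumin). The myeloid means of these groups did not overlap in either strain.

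Of 4 follicular dendritic cell and stroma genes, the other known source of Cr2, Cxcl13 rose and Mfge8 fell in A/J, and none was called in C57BL/6. Over all genes 4.38% rose and 5.39% fell in A/J. The median A/J change of the 4 was -0.06, with 2 above 0, so their mean does not show a rise of the list as a set. Their mean ran between 6.09 and 6.32 after resiquimod with ovalbumin and between 5.52 and 5.99 after ovalbumin in A/J, and between 5.86 and 6.09 after resiquimod with ovalbumin and between 5.43 and 5.99 after ovalbumin in C57BL/6. Of 7 plasmacytoid dendritic cell genes 1, Bst2, rose in C57BL/6, where 5.8% of all genes did. Thymocyte genes averaged 3.35 to 3.67 on all arrays, near the 25th percentile of all values.

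The 10 other genes most like the 9 were taken by Pearson r over the 18 arrays to the mean of the 9 scaled values. They were Cxcr5 (0.93), Bank1 (0.90), Spib (0.90), Gpr18 (0.88), Fcrla (0.87), Niban3 (0.87), Tnfrsf13c (0.86), Tbc1d10c (0.86), Def6 (0.86) and H2-Oa (0.85). With group means subtracted their r lay between 0.76 (H2-Oa) and 0.96 (Bank1). Among the 9 themselves r with that mean was 0.89 to 0.95 for the 6 genes that rose in C57BL/6, 0.71 for Pax5, 0.20 for Cr2 and -0.03 for Fcer2a.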

How the data were processed

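Total RNA of whole lungs was labelled with biotin and hybridised to Affymetrix mouse expression arrays, 3 arrays in each of 6 groups. The deposited values are log2 expression values that the authors made with RMA, per the submitters' processing notes, which name RMA and affy without versions; RMA corrects background, normalizes quantiles and summarises probes. The table has 45101 probe sets, with values between 2.00 and 14.03. Scan dates and array batches are not given in the sources used here, and the number of arrays limits the precision.

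After 64 control probe sets were left out, 45037 were fitted as 6 group means with limma 3.58.1 in R 4.3.3 (lmFit and eBayes, 12 residual degrees of freedom), tested two-sided and adjusted by Benjamini-Hochberg over all probe sets of a comparison. The array annotation gave 1 gene for 34945 of them, several for 932 and none for 9160, and 34741 of the 34945 had a RefSeq entry with the same gene identifier. The fit was tested on simulated data. Comparisons were resiquimod with ovalbumin against ovalbumin, either against PBS, A/J against C57BL/6 in each treatment, and the strain difference in either effect.

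The members and gene lists were chosen with earlier results of these data known. Named are all 9 members, up to 4 called genes of each other list by size of change, and the 10 genes nearest in pattern, passing over clone and predicted names. Alternatives were each array left out, the replicate number as a block, only the groups compared, array weights, an intensity trend, median centring, a filter on low values, the probe set with the largest SD, and leaving out arrays with squamous transcripts.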

Additional observations from a re-analysis of the deposited data

Results flagged for a closer look

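The effect of resiquimod with ovalbumin relative to ovalbumin differed between the strains for 2 of the 9 genes, by a direct test of the difference. For Fcer2a the A/J change minus the C57BL/6 change was -1.23 on the log2 scale (limma, adjusted p = 0.00967), with a change of -1.37 in A/J and -0.14 in C57BL/6. For Cd22 it was -1.004 (limma, adjusted p = 0.0378), with a change of 0.36 in A/J and 1.37 in C57BL/6. The Cd22 call is the less settled: it held in 9 of the 18 fits without 1 array, that of Fcer2a in all 18. Without the arrays with squamous transcripts the difference was -1.13 for Fcer2a and -0.89 for Cd22. That fit leaves A/J ovalbumin array 2 alone in its group, too few arrays to judge either call. The other Cd22 probe set gave -1.12 (limma, adjusted p = 0.143).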

How the results depend on the processing

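Of the 2574 recomputed values of single genes, none that was called turned round. The number of the 9 genes called was 6 for resiquimod relative to ovalbumin in C57BL/6 and 5 to 6 without 1 array; in A/J it was 1, and 1 to 3 without 1 array. Relative to PBS it was 6 in C57BL/6 (6 in every fit without 1 array) and 2 in A/J (2 to 3). For ovalbumin relative to PBS in A/J it was 1 and ran between 0 and 1. For A/J relative to C57BL/6 it was 4 after resiquimod (1 to 7), 0 after ovalbumin (0 to 2) and 0 after PBS, and for the strain difference in the resiquimod effect 2 (1 to 4). Without the 8 squamous arrays the counts were 3 for resiquimod relative to ovalbumin in A/J, 3 relative to PBS in C57BL/6, 0 for ovalbumin relative to PBS in A/J, 1 for the strains after ovalbumin and 0 for the strain difference in the resiquimod effect; this leaves 10 arrays and 1 array in 2 of the groups, each assumed to vary like the other groups. Array weights, and a fit of only the groups compared, gave 1 for the strains after PBS, and that fit and the probe set with the largest SD each gave 1 for the strain difference in the resiquimod effect. Where no array was dropped, the cause was not tested. With the replicate number as a block the count for the strains after ovalbumin was 1; it was 6 after resiquimod, and the block changed no other count. The numbers do not pair the samples in general: correlations of deviations between arrays with the same number ran between -0.58 and 0.50, and every pair was above 0.1 in 1 of the comparisons, resiquimod relative to PBS in A/J, where the block also gave 2. Levels near 3.33, the 25th percentile, leave Pax5 little room to show a fall.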
